A study of Mus musculus with 48 samples.

Results

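B cell receptor (BCR) heavy-chain repertoires of the lacrimal gland (LG), the exocrine gland that secretes the aqueous tears, were compared between mice that had received oral phosphate-buffered saline and untreated mice of the same strain. The members were the LG libraries of the PBS-T group (9 mice) and of the untreated BCR control mice, called NC (5 mice), which were 14 of the 48 libraries of the series. They were defined by their labels, and the comparison was chosen with earlier results of these data known. The mouse was the unit of every test. The spleens of the same mice, and the LG and spleen libraries of the NOD-FMT mice, which had received feces of an autoimmune-prone strain, were not members. The 10 NOD-FMT glands counted, with the other 14, towards the filter on shared sequences, and the spleens served to check isotypes and to find which clonotypes were seen elsewhere.

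All of the mice were C57BL/6. The PBS-T mice were 5 weeks old at the first gavage and were gavaged once a day for 3 weeks, after a period in which their fecal pellets were mixed between cages and a course of ampicillin, vancomycin and metronidazole in the drinking water. The series' design text places the NC mice in the same cohort with no treatment, and the labels do not give their age at harvest. The comparison is therefore between untreated mice and mice given mixing of feces, antibiotics and PBS gavage together, and the parts of that procedure cannot be told apart. Each library held heavy chains amplified from total RNA of 1 organ of 1 mouse, so more plasma cells and more RNA per plasma cell cannot be told apart in its counts.

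The variable part of an antibody heavy chain is joined from a V, a D and a J segment, and the junction, the third complementarity-determining region (HCDR3), is the most variable stretch. B cells leave the bone marrow with IgM and IgD, and can then switch to IgG, IgE or IgA and acquire point mutations in the V region. In the lacrimal gland, plasma cells that secrete dimeric IgA supply the antibody carried into the tears.

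The tissue label was checked against the isotypes. IgA took 13.9–97.8% of the counts in the 14 glands, and it was the most abundant isotype in 13 of them. In the 14 spleens of the same mice IgM took 64.9–94.4% and IgA 2.29–22.8%. PBS-T 9 was the gland in which IgM, at 48.9%, was more abundant than IgA.

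A clonotype was defined as a combination of V gene, J gene and HCDR3 amino acid sequence, and a count was 1 consensus sequence made from reads with the same molecular identifier. After sequences found in more than 2 of the 24 mice were removed, the PBS-T glands held 40105–216868 counts with a median of 57709, and the NC glands 56729–80575 with a median of 75358. A count of 0 therefore allowed a share of up to 0.00138–0.00748%, which covers counting error only. The labels mark 4 PBS-T glands (1, 3, 6 and 8) and 1 NC gland (4) as merged, without saying what was merged.

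Several libraries stood apart before any comparison. Of the 100 largest clonotypes of each gland, 64–97 recurred in the matched spleen in 13 of the 14 mice. In PBS-T 5 the number was 4, and 0–6 of its 100 largest clonotypes were found in each of the other spleens. Removing sequences found in more than 2 mice took 39.8% of its counts (143348 of 360216, in 414 distinct sequences), against 0.145–2.24% in the other PBS-T glands and 0.307–1.166% in NC glands. Its values therefore depend on that filter. Without the filter its largest clonotype took 5.96% of its counts in place of 1.80%, its 10 largest 20.7% in place of 8.43%, and its evenness was 0.701 in place of 0.799, while IgA was at 84.8% in place of 86.7% and the match to its own spleen stayed at 4 of 100. This library also held 17213 clonotypes (17222 without the filter), where the other glands held 560–1089. Of its clonotypes 51.4% rested on 1 count, inside the range of 36.1–69.2% of the other glands. Clonotypes present in it made up 10.2–29.3% of the clonotypes of the NC glands, on 0.283–0.829% of their counts. In the other PBS-T glands they made up 0.693–37.9% of the clonotypes, with the highest value in PBS-T 7. There they were on 0.0861–4.68% of the counts, with the highest value in PBS-T 4. The library labelled PBS-T 5 is therefore given with its group, and the comparisons are given without it too, and a further comparison also removed its clonotypes from every other gland.

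NC 2 and NC 3 shared 806 sequences, which carried 93.9% of the counts of NC 3 and 11.3% of those of NC 2. These sequences fell in 447 clonotypes, where NC 2 held 1015 clonotypes and NC 3 held 1089. Measures that count clonotypes therefore rest on the shared sequences more in NC 2 than its share of counts shows. Of the 447 clonotypes, 314 (70.2%) were found in the spleen of NC 3 and 17 (3.803%) in the spleen of NC 2. Of the clonotypes of NC 2, 19.9% were found in its own spleen and 32.4% in that of NC 3. The 2 spleens differed in depth, with 86717 counts and 42729 clonotypes in NC 2 and 417470 counts and 140522 clonotypes in NC 3. The shares found were not adjusted for this. The source of the shared sequences was not tested, and a comparison without both mice was made.

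**Figure D1:**
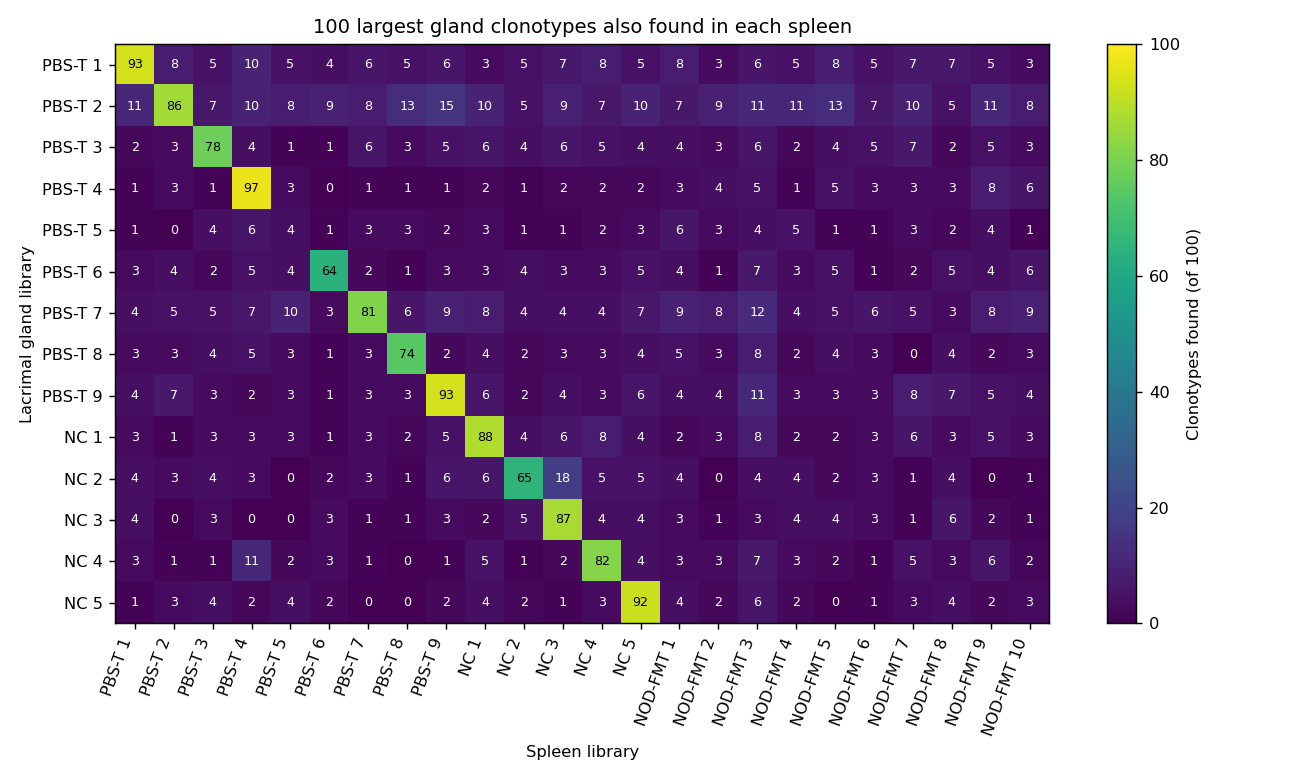
Number of the 100 largest clonotypes of each LG library (rows, 9 PBS-T and 5 NC mice) that were also found in each of the 24 spleen libraries (columns), shown as shading. The 13 libraries other than PBS-T 5 held 64–97 of them in the spleen of the same mouse, and PBS-T 5 held 4.

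The HCDR3 sequences of large clonotypes are given here because most of them were the largest of their gland and several held most of the counts of one IgG subclass there. They are read 5′ to 3′ from the deposited sequences in their most abundant nucleotide form, and the capitals mark bases that the germline alignment assigned to no V, D or J segment. The first set holds clonotypes of PBS-T glands that were mostly of an isotype other than IgA, each of them the largest of its gland unless stated.
PBS-T 2, IGHV1-9 with IGHJ2, 90.4% IgG2B: tactacggtagtagctttgactac
PBS-T 3, IGHV1-15 with IGHJ3, 88.4% IgG1: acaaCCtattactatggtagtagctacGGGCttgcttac
PBS-T 8, IGHV14-3 with IGHJ4, second in that gland, 99.7% IgG2C: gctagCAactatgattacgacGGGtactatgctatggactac
PBS-T 9, IGHV1-72 with IGHJ2, 86.6% IgG2C: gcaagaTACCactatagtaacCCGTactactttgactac
The next set holds the largest clonotypes of NC 1 to 5, in that order, each of them 100% IgA.
NC 1, IGHV1-53 with IGHJ1: gcaaCcaactgggacAggtacttcgatgtc
NC 2, IGHV11-2 with IGHJ2: atgagatGGGGGGgggacGGctttgactac
NC 3, IGHV1-53 with IGHJ2: gcaagaaactggAATTGGtactttgactac
NC 4, IGHV1-53 with IGHJ1: gcaagaaactgggacAggtacttcgatgtc
NC 5, IGHV1-9 with IGHJ4: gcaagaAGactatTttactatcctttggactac
The last set is 1 clonotype, IGHV1-9 with IGHJ2 and 9 residues, that was large in 3 glands of both groups in 3 nucleotide forms coding for the same amino acids.
PBS-T 1: gcaagAGGGGGTAactactttgactac
PBS-T 2: gcaagAGGGGGAAactactttgactac
NC 1: gcaaGGGGGGGAAactactttgactac

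Isotype use was compared first. IgA, the isotype of mucosal and glandular secretions, took 93.7, 42.3, 76.9, 97.1, 86.7, 96.5, 97.1, 72.4 and 13.9% of the counts in PBS-T 1 to 9. In NC 1 to 5 it took 96.7, 88.6, 97.7, 97.3 and 97.8%. The NC glands were thus almost uniformly IgA, while the PBS-T glands ranged from values as high as the controls down to PBS-T 2 and PBS-T 9. The means were 75.2 ± 29.0% (SD, n = 9) and 95.6 ± 3.93% (SD, n = 5). The shift, taken as the median of the 45 differences between a PBS-T and an NC mouse, was −10.6 percentage points (exact 95.8% interval −55.0 to −0.200). The exact two-sided permutation test of the rank sum gave p = 0.0290, and p = 0.252 after Benjamini-Hochberg adjustment over the 42 measures tested, so the difference did not pass the correction.

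Of the 42 measures 0 passed the adjusted threshold (0%), and 7 (16.7%) had an unadjusted p under 0.05. Without PBS-T 5 these numbers were 0 and 10 (23.8%), with a lowest adjusted p of 0.114 in the exact permutation test. Without NC 2 and NC 3 they were 0 and 3 (7.14%), namely IgA, IgG3 and the IGHV5 family, and leaving out NC 3, NC 4 or NC 5 alone left 1 under the unadjusted threshold. Many of the measures are parts of the same whole, such as shares of isotypes, and are not independent of each other. An unadjusted p under 0.05 is therefore given with its adjusted value.

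With 1 mouse left out the IgA shift ran from −4.11, without PBS-T 2, 3, 8 or 9, to −11.4, without PBS-T 1, 4, 6 or 7. Without PBS-T 5 it was −7.96 percentage points (exact permutation p = 0.0451, adjusted p = 0.189). When each clonotype was counted once, under its most abundant isotype, IgA took 30.4–88.8% in PBS-T glands and 63.7–87.2% in NC glands (shift −20.8, exact permutation p = 0.0599). Among the 5 PBS-T and 4 NC glands not marked as merged the shift in counts was −10.5 (exact permutation p = 0.190). Leaving out PBS-T 2 and PBS-T 9, which was chosen after their values were seen, gave −3.08 (exact permutation p = 0.0732).

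**Figure D2:**
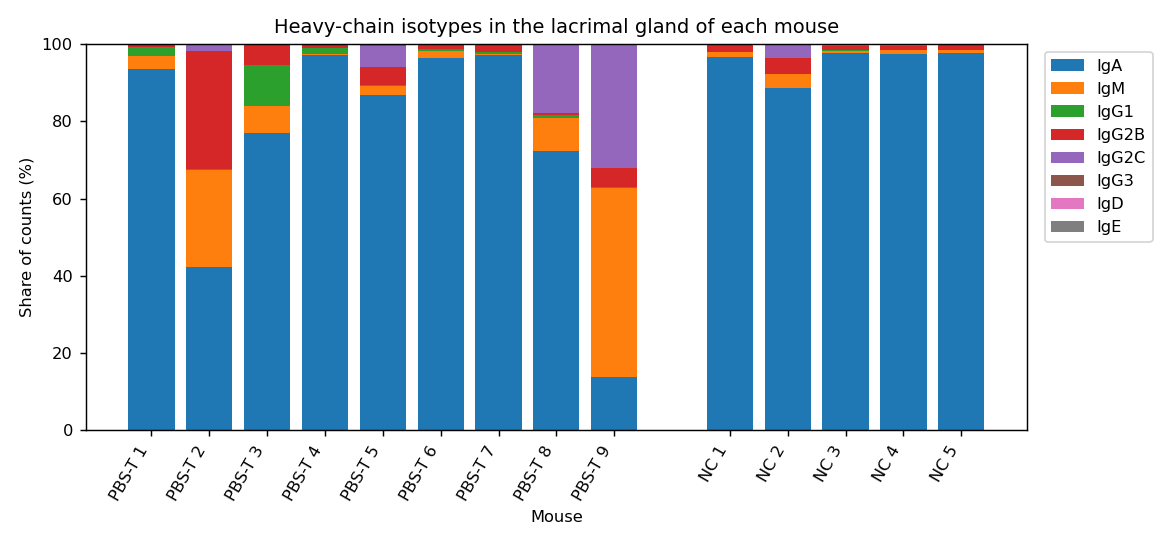
Share of the counts of each LG library taken by each heavy-chain isotype (percent, stacked bars, 1 bar per mouse, 9 PBS-T and 5 NC mice). The NC bars are 88.6–97.8% IgA, and the PBS-T bars 13.9–97.1%, with IgM, IgG2B, IgG2C or IgG1 taking the remainder in different mice.

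The isotypes that took the place of IgA differed from mouse to mouse. IgM, the isotype of unswitched cells, took 48.9% in PBS-T 9 and 25.0% in PBS-T 2, and 0.289–8.35% in the other PBS-T glands. The NC glands held 0.555–3.50% IgM, and the groups overlapped (exact permutation p = 0.240, and 0.284 without PBS-T 5). IgG2B took 30.5% in PBS-T 2 and 0.621–5.13% in the other PBS-T glands, against 0.804–4.14% in NC glands (exact permutation p = 0.518, and 0.724 without PBS-T 5). IgG2C took 32.1% in PBS-T 9, 17.7% in PBS-T 8 and 5.36% in PBS-T 5, while the other 6 PBS-T glands held 0.0306–1.80% and the NC glands 0.238–3.57% (exact permutation p = 0.797, and 0.524 without PBS-T 5). PBS-T 9 thus had the highest share of both IgM and IgG2C, and PBS-T 2 that of IgG2B.

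IgG1 was the subclass in which most PBS-T mice lay above the controls. It took 2.39, 0.371, 10.5, 1.51, 0.101, 0.573, 0.516, 0.851 and 0.0768% of the counts in PBS-T 1 to 9, and 0.0906–0.137% in NC glands. All PBS-T mice other than 5 and 9 were above every NC mouse. The shift was 0.453 percentage points (exact permutation p = 0.0829, adjusted p = 0.317). Without PBS-T 5 it was 0.598 (exact 95.5% interval 0.242 to 2.28, permutation p = 0.0295, adjusted p = 0.177), and the PBS-T mouse was higher in 35 of 40 pairs. IgG3 was rare, at 0.00520–0.270% in PBS-T and 0.00124–0.0420% in NC glands (shift 0.0265, exact permutation p = 0.0420, adjusted p = 0.252), and the highest value was that of PBS-T 5. Without that library the shift was 0.0163 (exact permutation p = 0.0653), which was also the lowest with 1 mouse left out, the same as without PBS-T 2 or PBS-T 9, and the highest was 0.0316. IgD and IgE, at up to 0.214% and 0.0288% of the counts, had exact permutation p-values of 1 and 0.281, and of 0.833 and 0.324 without PBS-T 5.

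The non-IgA counts came from few clonotypes in most of these mice. In PBS-T 2, IgG2B held 26881 counts in 71 clonotypes, of which the IGHV1-9 clonotype printed above for that mouse took 86.1%. In PBS-T 8, IgG2C held 14412 counts in 67 clonotypes, and the IGHV14-3 clonotype took 96.4% of them. IgG1 in PBS-T 3 held 4230 counts in 40 clonotypes, with 56.3% in the IGHV1-15 clonotype. IgG2C in PBS-T 9 held 36409 counts in 125 clonotypes, with 46.2% in the IGHV1-72 clonotype and 98.6% in the 10 largest. The IgM of PBS-T 9 was of another kind, since its 55443 counts were spread over 499 clonotypes, the largest of which took 5.88%. The IgM of PBS-T 2 held 22036 counts in 234 clonotypes, and an IGHV1-69 clonotype with IGHJ1 took 28.6%. In PBS-T 5 the IgG2C was spread more widely, with 11627 counts in 1213 clonotypes. The largest of those took 7.13% and the 10 largest 37.5%.

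Mutation of the V region was compared as the mean number of V-region mutations over the distinct sequences of a gland. Large clonotypes weigh more in such a mean. The largest gave 269 of the 2410 distinct sequences of PBS-T 6 and 273 of the 3719 of NC 2. A mean with each clonotype counted once was not computed. PBS-T 1 to 9 had means of 2.15, 2.58, 2.25, 1.91, 3.62, 1.72, 1.39, 2.16 and 1.32, and NC 1 to 5 had 2.61, 2.36, 2.91, 3.27 and 2.64. PBS-T 5 had the highest value of all 14 glands, and of the other 8 PBS-T mice only PBS-T 2 was above any NC mouse. The group means were 2.12 ± 0.70 (SD, n = 9) and 2.76 ± 0.35 (SD, n = 5). The shift was −0.704 mutations (exact 95.8% interval −1.29 to −0.0593, permutation p = 0.0290, adjusted p = 0.252). Without PBS-T 5 it was −0.755 (exact 95.5% interval −1.32 to −0.329, permutation p = 0.00311, adjusted p = 0.114), with the PBS-T mouse higher in 1 of 40 pairs. Removing the clonotypes of PBS-T 5 from the other glands as well left it at −0.733 (exact permutation p = 0.00311, adjusted p = 0.131). NC 2 and NC 3 had many sequences in common. When both were left out and PBS-T 5 was kept, the unadjusted p of the exact permutation test was not under 0.05.

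The same direction held when sequences were weighted by their counts (shift −0.750, exact permutation p = 0.0420, adjusted p = 0.252), and among glands not marked as merged (shift −0.716, exact permutation p = 0.286). Among IgA sequences alone the means were 1.41–3.73 in PBS-T and 2.57–3.58 in NC glands (shift −0.813, exact permutation p = 0.0829). Without PBS-T 5 the IgA shift was −0.887 (exact permutation p = 0.0186, adjusted p = 0.157). Among IgM sequences the shift was of the opposite sign, at 0.582 (exact permutation p = 0.240), and 0.443 without PBS-T 5 (exact permutation p = 0.354), with means of 0.327–2.75 in PBS-T and 0.497–1.35 in NC glands. With 1 mouse left out the IgM shift ran from 0.320, without PBS-T 1, 2 or 8 or NC 1, to 0.672, without PBS-T 4 or 7. Sequences with no V mutation made up 17.8–35.8% in PBS-T and 21.4–25.5% in NC glands (shift 6.68 percentage points, exact permutation p = 0.147). Without PBS-T 5, whose share was the lowest, this shift was 7.65 (exact permutation p = 0.0451, adjusted p = 0.189).

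**Figure D3:**
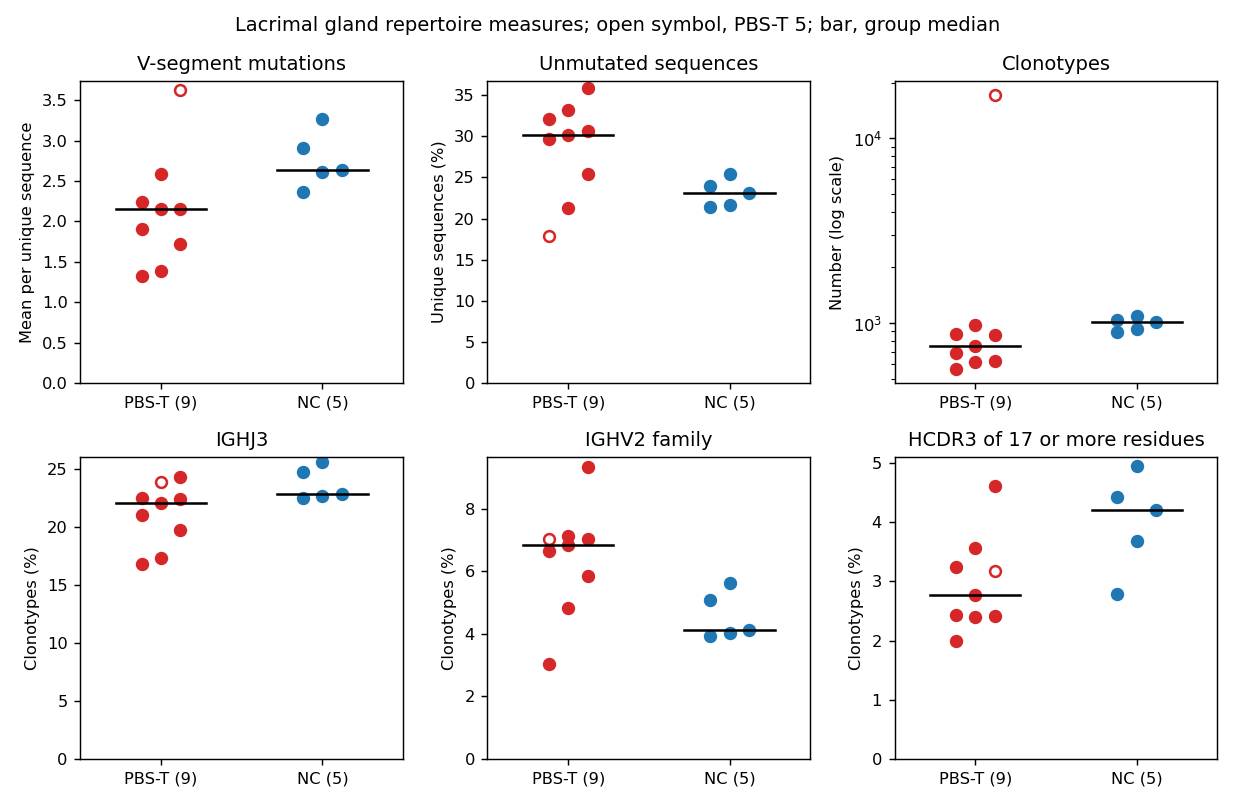
Single values per LG library for 6 measures (1 panel each, 1 point per mouse, bar at the group median, PBS-T 5 as an open symbol, axes in the units named on each panel). PBS-T 5 lies far above all other mice in the number of clonotypes (17213 against 560–1089) and highest in mean V mutations (3.62).

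The number of clonotypes was 867, 560, 866, 626, 17213, 686, 617, 753 and 976 in PBS-T 1 to 9 and 927, 1015, 1089, 1033 and 898 in NC 1 to 5. Under this filter PBS-T 5 and PBS-T 9 were the PBS-T mice above any NC mouse. When a sequence found in several of the 24 glands was instead kept only where its count was highest, which was chosen after seeing the data, 11.6% of the counts of NC 2 and at most 1.58% of those of any other gland were removed. The numbers were then 831, 557, 851, 618, 17207, 671, 470, 697 and 946 in PBS-T 1 to 9 and 839, 668, 935, 871 and 792 in NC 1 to 5, so that 6 of the 9 PBS-T mice were above NC 2, and the log2 shift was −0.17 (exact permutation p = 0.518). On a log2 scale the shift was −0.39 (exact 95.8% interval −0.72 to −0.05, permutation p = 0.0420, adjusted p = 0.252), and without PBS-T 5 it was −0.45 (exact permutation p = 0.00622, adjusted p = 0.114). This difference moved with the clonotypes that the glands had in common with PBS-T 5. Without them the numbers were 383–924 in the other PBS-T glands and 718–911 in NC glands, and the log2 shift was −0.21 (exact permutation p = 0.354). When every library was thinned to 40105 counts, PBS-T glands held 438–7252 and NC glands 688–857 clonotypes (log2 shift −0.35, exact permutation p = 0.298). The difference between the group means, which PBS-T 5 dominates, had the other sign at 0.07. The shift also changed sign, to 0.0786, when each shared clonotype was kept only in the gland where it was most abundant, and without NC 2 and NC 3 it was −0.30 (exact permutation p = 0.145).

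The groups overlapped in how evenly the counts were spread over clonotypes. Pielou's evenness, which is 1 when all clonotypes are equally large, was 0.452–0.799 in PBS-T and 0.574–0.714 in NC glands (exact permutation p = 0.518, and 0.284 without PBS-T 5). The lowest value was that of PBS-T 2 and the highest that of PBS-T 5, which without the filter on shared sequences fell inside the range of the others (0.701, with 0.459–0.719 in the other 13 glands). The largest clonotype took 1.80–29.0% of the counts in PBS-T glands, with a median of 17.1%, and 6.86–16.5% in NC glands, with a median of 12.5% (shift 2.27 percentage points, exact 95.8% interval −7.19 to 12.2, permutation p = 0.606). With 1 mouse left out this shift ran from 0.872, without PBS-T 2, 6 or 8, to 4.70, without PBS-T 1, 3, 4 or 5. The 10 largest together took 8.43–79.6% and 30.7–61.2% (exact permutation p = 0.298, and 0.127 without PBS-T 5). The inverse Simpson index, the number of equally large clonotypes that would give the same diversity, was 6.54–54.6 in the 8 PBS-T glands other than PBS-T 5, 576 in PBS-T 5 (129.6 without the filter), and 14.5–50.9 in NC glands (exact permutation p = 0.699, and 0.435 without PBS-T 5).

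Individual large clonotypes were described next. The clonotype of PBS-T 2 with 25619 counts was the largest of any gland by share, at 29.0% of its library (95% Wilson interval 28.7 to 29.3%). Its most abundant sequence had 0 V mutations, and its 363 distinct sequences had a mean of 1.08. It was found in no other of the 24 glands, with or without the filter on shared sequences, and in the spleen of 1 mouse, its own. In PBS-T 6 an IGHV1-53 clonotype with IGHJ2 took 23.5% (13051 counts), in PBS-T 8 an IGHV10-3 clonotype with IGHJ2 took 21.4% (17337 counts), and in PBS-T 7 an IGHV1-22 clonotype with IGHJ1 took 17.3% (8715 counts). In PBS-T 4 the largest was an IGHV1-82 clonotype with IGHJ2 at 10.6% (6103 counts). The largest clonotypes of NC 1, NC 3 and NC 4 all used IGHV1-53 and took 15.02, 12.5 and 11.3%. The NC 4 clonotype was also the fifth largest of NC 1, with the same HCDR3 nucleotides, at 2518 counts (3.13%). It was found in 7 of the 24 spleens. NC 1 and NC 4 had 1 whole sequence in common, on 2272 counts of NC 1 and 1 count of NC 4. The NC 3 clonotype had 1004 counts in NC 2, the gland that shared sequences with it.

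The IGHV1-9 clonotype printed in 3 nucleotide forms was the largest of PBS-T 1 (3297 counts, 7.83%), the second of PBS-T 2 (19729 counts, 22.4%) and number 12 of NC 1 (1525 counts, 1.89%). The form of PBS-T 2 differed by 1 base from each of the others, and those of PBS-T 1 and NC 1 differed by 2. It was found in 15 of the 24 spleens and in 3 of the 10 NOD-FMT glands, at up to 194 counts. In PBS-T 1, PBS-T 2 and NC 1 different nucleotides for 1 protein sequence were thus seen at high counts. The forms in the NOD-FMT glands were not compared. PBS-T 2 had 2 whole sequences in common with NOD-FMT 4, on 11800 counts (13.4%) of PBS-T 2. The clonotypes shared by most glands were of low count outside PBS-T 5.

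Of 25990 distinct clonotypes, 1703 were found in 2 or more of the 14 glands, and 1089 of these were among those of PBS-T 5. PBS-T 5 held 17213 of the 25990, so its part in the 1703 was no larger than in all clonotypes. The 1703 include the 447 that NC 2 and NC 3 had in common through shared sequences. By number of glands, PBS-T 5 held 849 of the 1436 clonotypes found in 2 glands and 156 of the 179 found in 3. Of the 88 found in 4 or more glands, 84 were among those of PBS-T 5. The most widely shared, IGHV1-78 with IGHJ2, was found in 9 glands (5 NC and 4 PBS-T). It had 3664 counts in PBS-T 5, where it was the second largest, and 2–9 counts in each of the others. The largest of PBS-T 5 itself, IGHV1-53 with IGHJ2, took 3898 counts (1.80%), was found in 8 glands at 1–12 counts elsewhere, and was found in no spleen. These numbers leave out its widely shared sequences: without the filter it had 21458 counts in that library, still the largest, and was found in 9 glands, and the IGHV1-78 clonotype had 8448 counts and was the third. A further 3 clonotypes were in 9 glands, IGHV2-2 with IGHJ4, IGHV1-18 with IGHJ1 and IGHV9-4 with IGHJ2, with 2358, 1738 and 1298 counts in PBS-T 5 and at most 8 in any other. The next 5, each in 7 glands, were IGHV7-3 with IGHJ1, IGHV14-2 with IGHJ3, IGHV1-63 with IGHJ2, IGHV14-3 with IGHJ2 and IGHV1-26 with IGHJ1, with 497–1055 counts in PBS-T 5 and 1–6 elsewhere. The HCDR3 sequences of the IGHV1-78 and IGHV1-53 clonotypes are given because they mark the overlap between that library and the others.
IGHV1-78 with IGHJ2: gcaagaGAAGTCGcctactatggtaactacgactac
IGHV1-53 with IGHJ2: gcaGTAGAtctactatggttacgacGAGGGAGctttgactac

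The share of a gland's clonotypes that its own spleen also held was 18.6–60.9% in the PBS-T glands other than PBS-T 5, 2.46% in PBS-T 5, and 19.9–42.9% in NC glands (shift 0.944 percentage points, exact permutation p = 1, and 2.47 without PBS-T 5, exact permutation p = 0.724). The sign of this shift was not stable: it was −5.39 without NC 2 and NC 3, −5.15 with each shared clonotype kept only in the gland where it was most abundant, and −4.56 without PBS-T 2, 4 or 9. In the spleens of other mice of the same group the mean share was 1.05–7.77% for PBS-T and 2.13–10.4% for NC glands. The spleens held from 23938 clonotypes in PBS-T 6 to 205959 in PBS-T 4, and from 42729 in NC 2 to 197144 in NC 1. None of these shares was adjusted for the depth of the spleen.

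V gene use was compared as the number of clonotypes carrying each gene, with edgeR. Of 139 IGHV genes seen, 33 had enough clonotypes to be tested, and 0 (0%) passed an adjusted p of 0.05 while 2 (6.06%) had an unadjusted p under 0.05. DESeq2, which was applied to all 139, also called 0, with 9 under the unadjusted threshold, and the exact permutation test of the shares called 0 of the 33, with 2 under it. The edgeR estimates were above 0 for 17 genes and below 0 for 16, with a median log2 fold change of 0.06. For the same 33 genes this median was −0.11 without scaling between libraries, −0.0933 when all 139 genes were fitted with edgeR, 0.0451 with DESeq2 and 0.28 with counts in place of clonotypes. Over all genes fitted, rare ones included, the last 3 medians were 0.37, 0.50 and 0.45. The zero point therefore moved with the setting in both directions, and small changes are to be read relative to it.

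The 2 genes with the smallest p-values were both at higher shares in PBS-T glands. IGHV2-3 (mm10 chromosome 12, 113611187–113611617, minus strand) took 1.04, 1.79, 1.50, 1.12, 1.03, 0.729, 2.11, 1.73 and 1.84% of the clonotypes of PBS-T 1 to 9 and 0.863, 0.0985, 0.367, 1.16 and 0.780% of those of NC 1 to 5. Each PBS-T mouse other than PBS-T 6 lay above 4 of the 5 NC mice. Its log2 fold change was 1.29 (SE 0.41, edgeR p = 0.00504, adjusted p = 0.166), and 1.32 without PBS-T 5 (edgeR adjusted p = 0.177). It passed the threshold when PBS-T 5 and its clonotypes were removed (log2 fold change 1.79, edgeR adjusted p = 0.0221) and when each shared clonotype was kept only in the gland where it was most abundant (1.49, edgeR adjusted p = 0.0257). It did not when NC 2 and NC 3, which had the lowest shares of all 14 glands and shared sequences, were left out: its log2 fold change was then 0.78 (edgeR p = 0.0562, adjusted p = 0.615), and 0 of 43 genes had an unadjusted p under 0.05. With each shared sequence kept only where its count was highest, edgeR called 0 of 29 genes (lowest adjusted p = 0.0983). All of these comparisons were chosen after the data were seen. Where IGHV2-3 passed, 27 and 25 genes were tested in place of 33. Its NC shares rested on 8, 1, 4, 12 and 7 clonotypes in NC 1 to 5. After thinning and with the replicate block IGHV2-3 had too few clonotypes to be tested. IGHV8-8 (mm10 chromosome 12, 115294062–115294504, minus strand) took 0.860–3.57% in PBS-T and 0.334–1.74% in NC glands (log2 fold change 0.96, SE 0.39, edgeR p = 0.0248, adjusted p = 0.409). Without PBS-T 5 it was at 1.07 (SE 0.37, edgeR p = 0.0107, adjusted p = 0.177). With 1 mouse left out it ran from 0.74 to 1.14, with edgeR p from 0.0107 to 0.0751. Its unadjusted p was not under 0.05 without PBS-T 8, NC 2, NC 3 or NC 5.

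The ranges of the most used genes overlapped between the groups. IGHV1-26, the most used, took 6.36 ± 2.59% (SD, n = 9) in PBS-T and 7.68 ± 0.493% (SD, n = 5) in NC glands, and IGHV1-53 took 4.81 ± 2.08% and 6.82 ± 1.13%. IGHV1-18 was at 2.46 ± 0.667% and 3.69 ± 1.53%, and IGHV1-9 at 3.50 ± 2.55% and 2.27 ± 1.09%, the latter raised by PBS-T 2 at 10%. IGHV1-22 was the most variable among PBS-T mice, at 0.639–12.9%. IGHV1-39 took 1.14 ± 0.325% and 1.78 ± 0.456% and was the other gene under 0.05 in the exact permutation test of its shares (p = 0.0190), with an edgeR log2 fold change of −0.47 and an adjusted p of 0.583, and its edgeR estimate turned to 0.67 when counts were summed in place of clonotypes. None of IGHV14-3, IGHV1-78, IGHV9-3, IGHV6-3, IGHV3-6, IGHV1-64, IGHV1-55 and IGHV1-72 passed the edgeR threshold in the comparison of all 14 glands. Without PBS-T 5 edgeR again called 0 of 33 genes, with the same 2 under the unadjusted threshold. Among the named genes the estimate of IGHV1-78 then went from 0.43 to 0.18, and those of IGHV3-6 (0.06 to −0.01) and IGHV1-55 (to 0.04) changed sign.

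**Figure D4:**
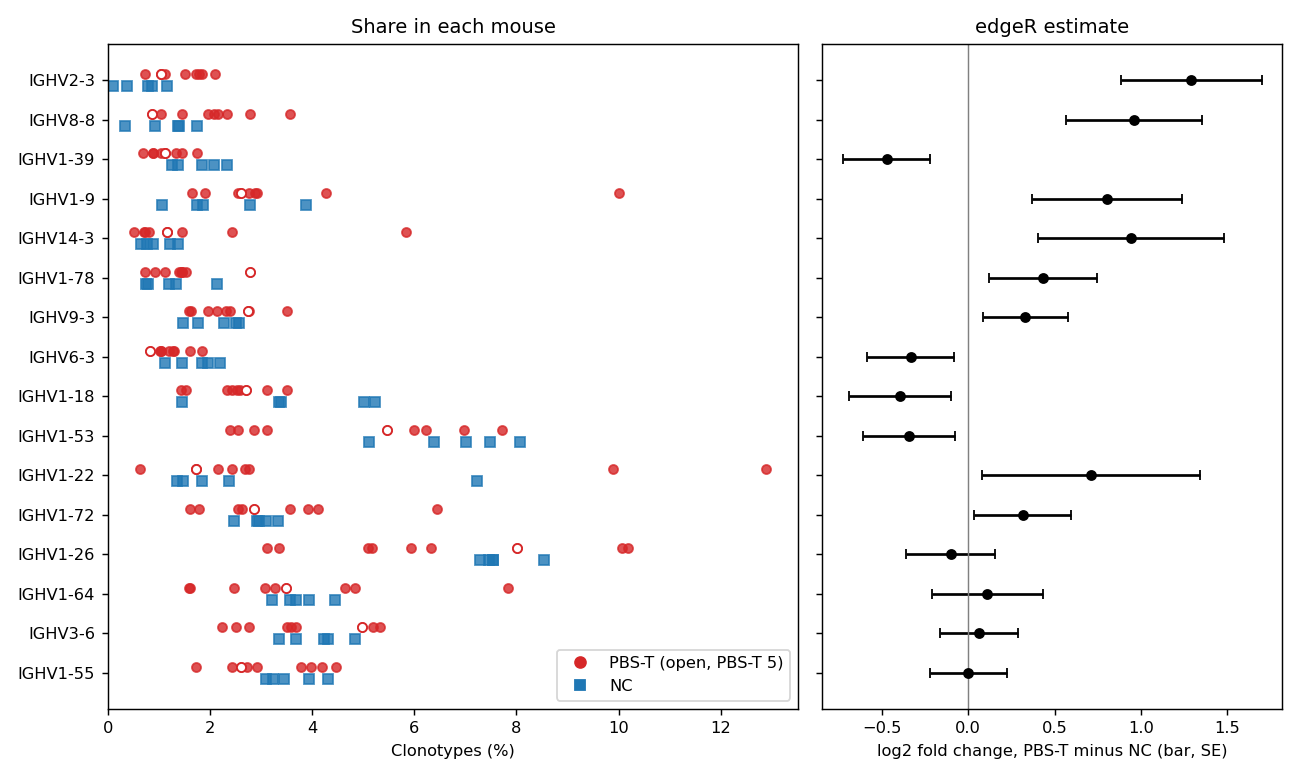
Left, share of the clonotypes of each LG library (percent, 1 point per mouse) for the 16 named IGHV genes in PBS-T and NC mice. Right, the edgeR log2 fold change of PBS-T over NC with its SE, which runs from 1.29 for IGHV2-3 to −0.47 for IGHV1-39.

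V families and J genes showed differences of a few percentage points. The IGHV2 family took 7.04, 4.82, 9.35, 3.04, 7.05, 6.85, 7.13, 5.84 and 6.66% in PBS-T 1 to 9, and 3.94–5.61% in NC glands. PBS-T 4 and PBS-T 2 were the PBS-T mice not above all NC mice. The shift was 1.97 percentage points (exact permutation p = 0.0420, adjusted p = 0.252), and 1.85 without PBS-T 5 (exact permutation p = 0.0653). The IGHV8 family took 1.92–5.54% and 2.27–3.15% (shift 0.673, exact permutation p = 0.0599), and without PBS-T 5, the lowest, the shift was 0.785 (exact permutation p = 0.0109, adjusted p = 0.114). IGHV1, the largest family, took 46.2–69.3% and 61.4–65.7% (shift −6.36, exact permutation p = 0.190, and −7.05 with p = 0.171 without PBS-T 5), and the other families had exact permutation p-values of 0.240 or more, and of 0.222 or more without PBS-T 5. No clonotype of the IGHV16 family was found.

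Among the 4 J genes, IGHJ3 took 22.5, 17.3, 22.4, 16.8, 23.9, 24.3, 21.1, 22.0 and 19.8% of the clonotypes in PBS-T 1 to 9 and 22.5, 22.9, 25.6, 22.7 and 24.7% in NC 1 to 5. PBS-T 2 and PBS-T 4 were the lowest. The shift was −2.23 percentage points (exact permutation p = 0.0290, adjusted p = 0.252), and −2.72 without PBS-T 5 (exact permutation p = 0.0109, adjusted p = 0.114). With the clonotypes of PBS-T 5 removed as well it was −2.52 (exact permutation p = 0.127). IGHJ1, IGHJ2 and IGHJ4 had shifts of 0.0744, 1.19 and 1.13 percentage points, with exact permutation p-values of 1, 0.606 and 0.606, and of 0.943, 0.435 and 0.724 without PBS-T 5. With 1 mouse left out the IGHJ1 shift ran from −0.848 to 1.24, the IGHJ2 shift from 0.0835, without NC 1, to 1.61, without PBS-T 3 or 7, and the IGHJ4 shift from 0.619, without PBS-T 1, 3 or 8, to 2.36, without NC 2.

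The HCDR3 had nearly the same mean length in both groups, 11.1–12.03 residues in PBS-T and 11.6–11.8 in NC glands (shift −0.0116, exact 95.8% interval −0.309 to 0.190, permutation p = 0.898, and −0.0530 with p = 0.724 without PBS-T 5). Long HCDR3s of 17 or more residues took 2.42, 3.57, 2.42, 2.40, 3.18, 2.77, 3.24, 1.99 and 4.61% in PBS-T 1 to 9 and 4.21, 4.43, 4.96, 3.68 and 2.78% in NC 1 to 5. PBS-T 9 was the PBS-T mouse above most NC mice, and NC 5 the NC mouse below several PBS-T mice. The shift was −1.25 percentage points (exact permutation p = 0.0420, adjusted p = 0.252), and −1.26 without PBS-T 5 (exact permutation p = 0.0451, adjusted p = 0.189). Short HCDR3s of 7 or fewer residues took 4.95–10.9% and 5.50–6.61% (shift 0.889, exact permutation p = 0.240, and 1.50 with p = 0.0932 without PBS-T 5).

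**Figure D5:**
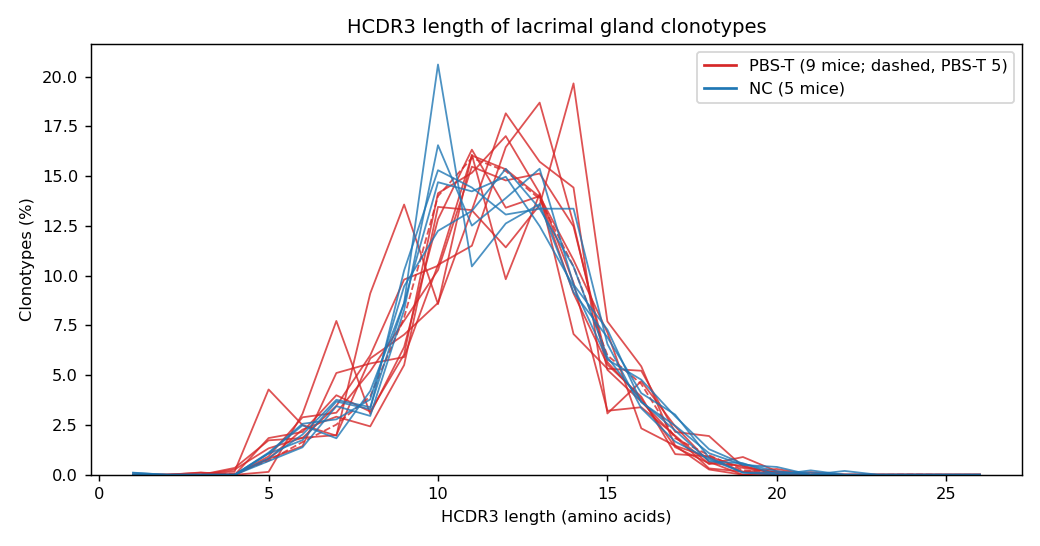
Share of clonotypes (percent) at each HCDR3 length in residues, 1 line per LG library, PBS-T and NC mice in separate colours. The lines of the 2 groups overlap through most lengths, with means of 11.1–12.03 residues in PBS-T and 11.6–11.8 in NC mice.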

How the data were processed

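Heavy-chain BCR libraries of the LG of 9 PBS-T and 5 NC mice were analysed, with spleens of all 24 mice for comparison. The authors merged read pairs with PEAR, filtered them by quality, collapsed reads by molecular identifier into consensus sequences and annotated these with IgBLAST, and the labels name mm10. The deposited table of each library lists sequences with their consensus counts, and the authors also give each count as a fraction of its file, which was not used further. In glands marked as merged, the sequence names carried 2 prefixes and some sequences stood on more than 1 row. PBS-T 1, for example, had 2940 rows for 2379 sequences. Counts of rows with the same sequence and isotype were added. The mutation number per sequence is the deposited one, of bases that differ from the germline V gene. The files are from before the authors' contamination filter, so sequences found in more than 2 of the 24 LG mice were removed from every gland, which took 39.8% of the counts of PBS-T 5 and at most 2.24% of those of the other 13 glands. The authors' methods word their filter in the same way, yet it took far less of PBS-T 5 and more of NC 2, and left fewer clonotypes in each of the 14 glands. The reason is not known here, so a filter that kept each shared sequence where its count was highest was added. Clonotypes were V gene, J gene and HCDR3 amino acids.

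Single values were tested by an exact two-sided permutation of the rank sum (2002 splits, smallest p 0.000999, scipy 1.17.1) with Hodges-Lehmann shifts and intervals, adjusted over 42 measures by Benjamini-Hochberg. IGHV genes were tested on clonotype numbers with edgeR 4.0.16 (quasi-likelihood, TMM). DESeq2 1.42.0 was an alternative. The exact rank-sum test, with its shift and interval, and the edgeR fit were checked on simulated data. DESeq2, the difference of means and the test of pairs were not. IGHV genes were named if among the 10 smallest edgeR p-values or the 10 highest mean shares, and clonotypes if largest of a mouse or found in 4 or more glands (at most 10, those in most glands first). Other clonotypes named were chosen after their values were seen. Members, measures and lists were chosen with earlier results of these data known. Alternatives were thinning, weighting, filters, the merged marking and leaving out each mouse. Replicate numbers of the 2 groups did not pair the mice.

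No label says that mice of a group were of separate litters or cages, so p-values measure the spread between these mice. Molecular identifiers were collapsed, but 1 plasma cell can give many counts, so the Wilson intervals of shares cover counting error only. The intervals of the shifts rest, like the p-values, on the spread between these mice.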

Additional observations from a re-analysis of the deposited data

Results flagged for a closer look

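In 17 of 116 sets of values (1 measure in 1 group) a single mouse lay farther from its group than Dixon's 95% limit allows. For normally distributed values chance alone gives about 1 in 20 such sets. Many of these sets are small shares or parts of the same whole, for which that rate was not tested. PBS-T 5 was that mouse in 5 of them, with a log2 number of clonotypes of 14.07 against 9.93 for the next mouse, a log2 inverse Simpson index of 9.17 against 5.77, an IgD share of 0.214% against 0.0374%, an IgG3 share of 0.270% against 0.0782% and an IGHV1-78 share of 2.78% against 1.54%.

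The other PBS-T mice concerned were PBS-T 2, with 30.5% IgG2B against 5.13% and 10% IGHV1-9 against 4.27%, PBS-T 3, with 10.5% IgG1 against 2.39%, and PBS-T 8, with 5.84% IGHV14-3 against 2.42%.

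Among NC mice, NC 2 stood apart in 4 measures, with 88.6% IgA against 96.7% in the next mouse, 3.50% IgM against 1.102%, 3.57% IgG2C against 0.539% and 1.77% of clonotypes from the IGHV11 family against 0.223%. NC 3 had 0.0288% IgE against 0.00618% and 8.54% IGHV1-26 against 7.55%, NC 4 had 0.0740% IgD against 0.0223%, and NC 5 had 7.24% IGHV1-22 against 2.37%. The causes were not tested.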

How the results depend on the processing

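No measure passed the adjusted threshold in the comparison as reported or in any of its alternatives in the exact tests, and the number under the unadjusted threshold of the 42 ran from 0 (glands not marked as merged, and the replicate block) to 10 (without PBS-T 5), with 1 to 10 when 1 mouse was left out in turn. The IgA shift then ran from −11.4 to −4.11 percentage points, the shift in mean V mutations from −0.755 to −0.566, the log2 shift in clonotypes from −0.45 to −0.31 and that in evenness from −0.0556 to −0.0225, so these kept their sign. In the gland with the fewest counts, 40105, a count of 0 allows a share of up to 0.00748%. The comparisons without PBS-T 5 and its clonotypes, without NC 2 and NC 3, without PBS-T 2 and PBS-T 9, and with shared clonotypes or shared sequences kept where highest were chosen after seeing the data. A test of ambiguous V calls was not run, because the files held none. For the results that answer a comparison, the value kept its direction and side of the threshold under 235 combinations of result and alternative, reversed under 26 and moved under 3. For single isotypes, genes, families and shares it did so under 1259, reversed under 84 and passed the threshold under 2, both for IGHV2-3 (given with its values).

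The log2 shift in clonotypes reversed with the difference of means (0.0696) and with shared clonotypes kept where highest (0.0786). The number of V genes called was 2 with summed counts, 1 without PBS-T 5 and its clonotypes, 1 with shared clonotypes kept where highest, and 0 in every comparison with 1 mouse left out. The share found in the own spleen reversed to −5.39 without NC 2 and NC 3, −0.694 without PBS-T 5 and its clonotypes, −0.810 with clonotypes of at least 2 counts, −0.00169 as a difference of means, −2.91 with sequences in 2 or more mice removed, −5.15 with shared clonotypes and −3.14 with shared sequences kept where highest and −3.92 after thinning, and ran from −5.52 to 2.47 with 1 mouse left out. Mean HCDR3 length was 0.225 by counts, 0.0400 without NC 2 and NC 3, 0.00679 in glands not marked as merged and 0.00395 with sequences in 2 or more mice removed, and ran from −0.0589 to 0.0121 with 1 mouse left out.

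Single genes, isotypes and shares changed sign too, some of them from values well away from 0 (IGHV1-39 from −0.47, IGHV1-18 from −0.40 and IGHV1-22 from 0.71 on the log2 scale, IGHJ4 from 1.13 percentage points). With 1 mouse left out IGHV1-22 ran from 0.16 to 1.43 (log2). With summed counts IGHV1-26 was at 0.51, IGHV1-39 at 0.67 and IGHV1-55 at 0.0688 (log2). In glands not marked as merged IGHV1-26 was at 0.26, IGHV1-55 at 0.0253, IGHJ4 at −2.39, IGHV9 at −0.0785, IgD at −0.00264 and IgG2C at 1.47. Without NC 2 and NC 3, IGHV1-18 was at 0.0557, IGHV1-55 at 0.0482, IGHJ1 at −0.986, IGHV9 at −0.101 and IgD at −0.00756. Without PBS-T 5 and its clonotypes, IGHV1-55 was at 0.0457, IGHJ1 at −0.233 and IgD at −0.00257. IGHV1-55 was at 0.0480 with clonotypes of at least 2 counts and at 0.0504 with sequences in 2 or more mice removed, which put IGHJ1 at −0.391 and IgD at −0.00583. IGHV1-64 was at −0.0559 without TMM and −0.0752 with 1 clonotype as the filter, and IGHV3-6 at −0.11 and −0.0933, and at −0.16 without the contamination filter. Short HCDR3s were at −0.241 and IGHV9 at −0.447 by counts. The difference of means gave IGHJ1 −0.0989, IGHV13 0.0191 and IgG2C 5.40, shared clonotypes kept where highest gave IGHV13 0.0268 and IGHV3 0.0201, shared sequences kept where highest gave IGHJ1 −0.557 and IGHV1-55 0.00429 (log2), thinning gave IGHJ1 −0.151, and IgG2C was at 0.811 by clonotypes and 0.888 by unique sequences. With 1 mouse left out the ranges were −0.13 to 0.10 for IGHV1-55, −0.10 to 0.19 for IGHV1-64, −0.12 to 0.12 for IGHV3-6, −0.848 to 1.24 for IGHJ1, −0.0553 to 0.00167 for IGHV13, −0.903 to 0.670 for IGHV3, −0.00430 to 0.00379 for IgD and −0.221 to 0.00517 for IgG2C. The causes were not tested.

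The replicate numbers did not pair the mice: the correlations of same-numbered mice ran from −0.293 to 0.214, and 1 of 5 NC mice correlated best with its own number. With the replicate block, edgeR called 0 V genes with 2 under the unadjusted threshold, and single values could not go below p = 0.0625 in the exact test of 5 pairs. The block turned the log2 shift in clonotypes to 0.45 and that of the inverse Simpson index to 0.58, and gave −1.26 for the largest clonotype, −0.272 for IGHJ1, −0.0438 for IGHV5, 0.0484 for IGHV6, 0.513 for IgG2C, −0.35 for IGHV1-22, −0.10 for IGHV1-72 and −0.19 for IGHV3-6.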

Other observations

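Summing counts in place of clonotypes, edgeR called 2 IGHV genes that the clonotype numbers did not. IGHV8-5 had 370, 48, 526, 0, 223, 0, 1261, 236 and 91 counts in PBS-T 1 to 9 and 0, 0, 1, 2 and 1 in NC 1 to 5 (edgeR adjusted p = 0.0337). The PBS-T counts came from 4, 2, 1, 0, 28, 0, 4, 3 and 6 clonotypes in that order. The gene had enough counts to be tested only through the PBS-T glands, so its call is not support for a difference between the groups. IGHV3-8 was lower in PBS-T glands by this measure (log2 fold change −3.69, edgeR adjusted p = 0.0442), but the groups overlapped. It took 7.32, 0.153, 0.146, 4.78 and 0.740% of the counts in NC 1 to 5, and 0.0832, 0.0397, 0.194, 0.139, 0.791, 0.254, 0.0476, 0.381 and 0.287% in PBS-T 1 to 9, so that NC 2 and NC 3 were below 5 of the 9 PBS-T mice. Counts of 1 gene can come from 1 or a few plasma cells, which these sums do not separate.

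Other pairs of glands also had sequences in common. PBS-T 8 shared 18 sequences with PBS-T 3, on 26.9% of the counts of PBS-T 8 but on 21 counts (0.0524%) of PBS-T 3. Sequences shared with NOD-FMT 9 carried 23.97% of the counts of PBS-T 7, and those shared with NOD-FMT 4 carried 13.4% of the counts of PBS-T 2. The 3 sequences that NC 2 shared with NC 4 carried 12.7% of the counts of NC 2 and 22 counts (0.0388%) of NC 4.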
